A study of Mus musculus with 7 samples.

Results

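The proteasome genes of mouse CD8 T cells were compared between cells with and without ACLY (ATP citrate lyase, the cytosolic enzyme that makes acetyl-CoA from citrate). The members were all measured genes whose symbol begins with Psma, Psmb, Psmc, Psmd, Psme, Psmf or Psmg and a digit, without pseudogenes and without the interferon-inducible subunits Psmb8, Psmb9 and Psmb10. They were 46 of 16156 measured genes. Of these, 14 encode the core particle, 17 the regulatory particle and 13 activators, an inhibitor and assembly chaperones. The remaining 2, Psmc3ip and Psme3ip1, carry the name stem but do not encode proteasome subunits, so the label held for 44 members. Every member was tested, and the lowest count of any member in any library was 179.

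Total RNA was sequenced in 7 libraries, 3 labelled ACLY KO and 4 labelled WT, all of strain C57Bl/6. In both groups the cells were OT-I CD8 T cells, whose transgenic receptor recognises an ovalbumin peptide, and they carried a congenic mark. They were given to C57Bl/6 mice 1 day ahead of an infection with ovalbumin-expressing Listeria monocytogenes and were recovered 6 days after it. The labels state neither how Acly was deleted nor whether each library stems from its own animal, so p-values measure only the spread between these libraries, which may be technical.

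The proteasome degrades proteins that carry ubiquitin chains. Its core particle is a stack of alpha and beta rings, and 3 beta subunits hold the proteolytic sites inside. The regulatory particle caps the core: its base is a ring of ATPases that unfolds the substrate, and its lid removes the ubiquitin chain. In T cells, inducible beta subunits can take the place of the catalytic ones, and the peptides produced by proteasomes are a source of those shown on MHC class I.

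Library totals were 45288353 to 75586011 counts in WT and 37473484 to 39692359 in KO. CPM here is a count scaled to the library size with TMM factors, and values by library are always given in the order of the replicate numbers, WT 1 to 4 and KO 1 to 3. Acly, counted over the whole gene, was at 393, 339, 414 and 276 CPM in the WT libraries and at 262, 62.0 and 209 CPM in the KO libraries. All KO values were below all WT values, with a log2 difference of -1.003 ± 0.44 (SE) and an adjusted p of 0.278 in edgeR, or -0.60 without KO replicate 2. Before any result it has to be stated that libraries stood apart. The OT-I receptor uses V beta 5, encoded by a Trbv12 segment, and Trbv12 segments took 98.97%, 99.21%, 98.98% and 84.64% of all Trbv counts in the WT libraries and 47.3%, 23.7% and 62.2% in the KO libraries. The 10 B cell markers summed to 245 to 682 CPM in WT and to 10160, 1151 and 642 CPM in KO replicates 1 to 3, and the 5 measured of 6 red cell markers to 0.499 to 181 CPM in WT and 19570, 2782 and 95.9 CPM in KO. The 9 measured of 10 macrophage and monocyte markers summed to 19.2 to 34.7 CPM in WT and 1285, 75.3 and 1214 CPM in KO, and the 3 measured of 6 neutrophil markers to 0.0552 to 0.543 CPM in WT and 450, 29.7 and 1.31 CPM in KO. The 8 T cell markers, Cd8a among them, summed to 7091 to 9688 CPM in WT and to 3311, 7886 and 7756 CPM in KO. No measured marker of these lists was at 0 in all WT libraries. The mean log2 CPM of 20 cell cycle genes was 4.55, 4.32, 4.21 and 7.96 in WT replicates 1 to 4 and 6.09, 4.69 and 3.71 in KO. WT replicate 4 stood apart in the cell cycle genes, and KO replicate 1 in the B cell, red cell, neutrophil and T cell markers. Results are given with and without these libraries where they matter. KO replicate 2, however, had the lowest Trbv12 share, 23.7%. Macrophage and monocyte markers reached 1214 CPM in KO replicate 3. Leaving out KO replicate 1 thus does not leave KO libraries that match WT in these markers. In such bulk samples fewer cells of a type and less RNA per cell cannot be told apart.

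Core particle transcripts were lower on average in KO libraries than in WT libraries, while the regulatory particle differed by less and in mixed directions. All 14 core genes had a log2 difference below 0, against 50.0% of all genes, with a median of -0.38 and a range of -0.82 to -0.21. Of the 17 regulatory genes, 14 were below 0 and 3 above, with a median of -0.14 and a range of -0.61 to 0.07. Without WT replicate 4, 8 regulatory genes were below 0 and 9 above. The median over all 16156 genes was 0.00 to 2 decimals. No member passed an adjusted p of 0.05 in edgeR in either direction, and neither did any other gene (0% of genes called higher and 0% called lower). At an unadjusted p under 0.05 in edgeR, 7 core genes, 3 regulatory genes and 3 accessory genes were lower, where 7.89% of all genes were. One accessory gene was higher at that level, where 11.0% of all genes were. DESeq2 called 5 members lower, all of them core genes, and 0 higher, against 3.43% and 6.81% of the genes it tested. limma voom with quality weights called 1 member lower, Psme4, and 0 higher, against 1.68% and 5.32%.

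**Figure D1:**
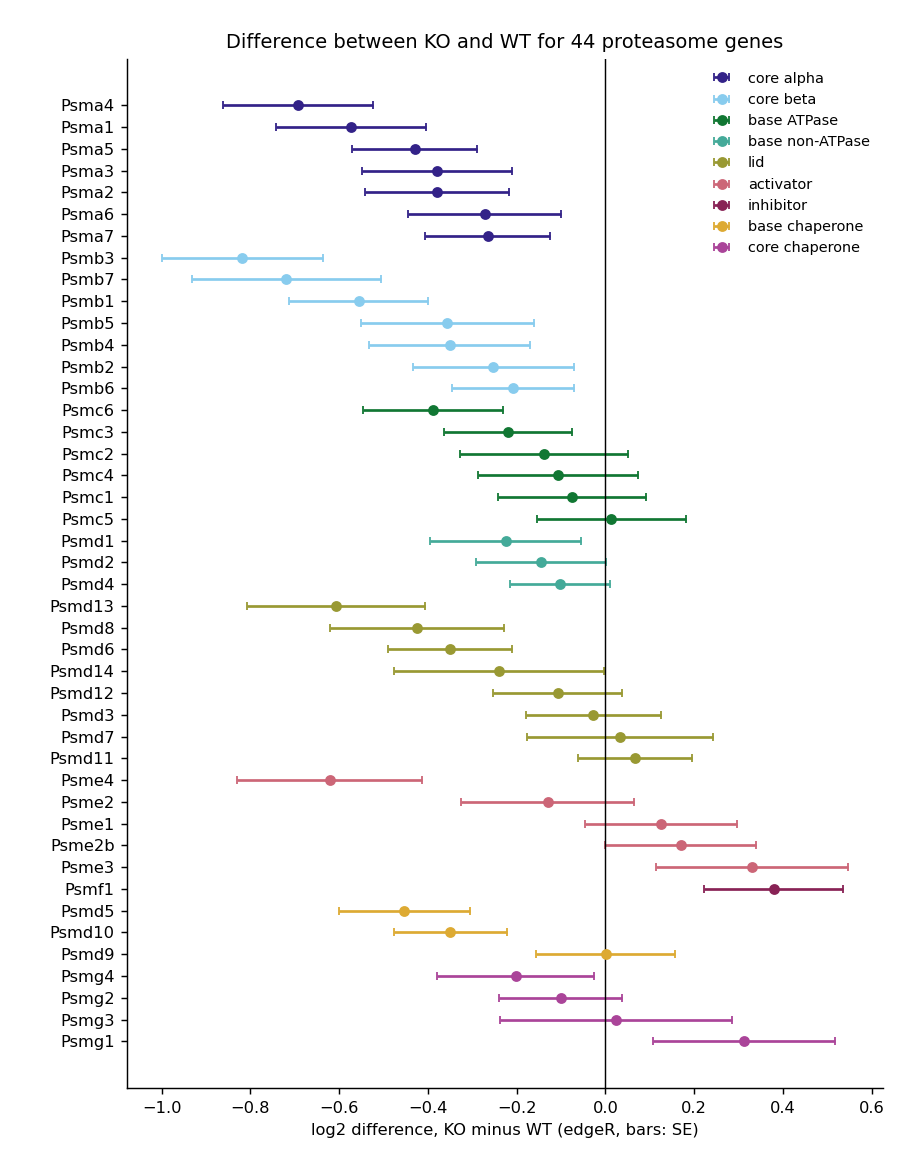
Log2 difference between KO and WT (x axis, edgeR, bars are SE) for 44 proteasome genes (y axis), coloured by subgroup and sorted within it. All 14 core genes lie to the left of 0, from -0.82 for Psmb3 to -0.21 for Psmb6, and the regulatory genes lie from -0.61 to 0.07.

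Among the alpha subunits, which form the outer rings of the core and its gate, Psma4 and Psma1 had the smallest p. Psma4 (chromosome 9, 54950790 to 54958030, plus strand, mm10) was at 126, 168, 109 and 157 CPM in the WT libraries and at 85.0, 87.2 and 87.7 CPM in the KO libraries. The KO libraries lay within a narrow band below all WT libraries, with means of 86.6 ± 1.45 CPM (SD, n = 3) and 140 ± 27.4 CPM (SD, n = 4). This is a fold of 0.619 and a log2 difference of -0.69 ± 0.17, with an adjusted p of 0.0995 in edgeR and 0.0142 in DESeq2. Psma4 shares 114 exon bases with the predicted gene AY074887, so part of its count is uncertain.

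Psma1 (chromosome 7, 114264606 to 114276118, minus strand) was at 260, 331, 218 and 314 CPM in the WT libraries and at 200, 182 and 184 CPM in the KO libraries. Again no KO library reached the lowest WT library, replicate 3. The log2 difference of Psma1 was -0.57 ± 0.17, with an adjusted p of 0.138 in edgeR and 0.0454 in DESeq2. At the other end of the alpha subunits, Psma6 was at 160, 185, 148 and 225 CPM in the WT libraries and at 131, 162 and 153 CPM in the KO libraries. Its groups overlapped, since KO replicates 2 and 3 were above WT replicate 3. Psma6 had a log2 difference of -0.27 ± 0.17 and an adjusted p of 0.451 in edgeR, and a difference of -0.14 without WT replicate 4. Over the 7 alpha subunits the median was -0.38, and in 3 of them every KO library was below every WT library, where 9.03% of all genes showed this.

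The structural beta subunits form the walls of the inner rings. Psmb3 (chromosome 11, 97703399 to 97713500, plus strand) was at 205, 271, 166 and 223 CPM in the WT libraries and at 112, 122 and 134 CPM in the KO libraries. No other member had a smaller p, and its highest KO library lay below its lowest WT library. The KO mean of Psmb3 was 122.7 ± 11.2 CPM (SD, n = 3) and the WT mean 216 ± 43.8 CPM (SD, n = 4), a fold of 0.567 and a log2 difference of -0.82 ± 0.18. The adjusted p of Psmb3 was 0.0844 in edgeR and 0.00395 in DESeq2.

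Psmb1 (chromosome 17, 15475021 to 15499751, minus strand) was at 317, 380, 273 and 371 CPM in the WT libraries and at 207, 228 and 249 CPM in the KO libraries. Its groups were also apart, with a log2 difference of -0.56 ± 0.16 and an adjusted p of 0.13 in edgeR and 0.0371 in DESeq2. Psmb2 had the largest p of the beta subunits and was at 185, 174, 183 and 267 CPM in the WT libraries and at 164, 190 and 155 CPM in the KO libraries. WT replicate 4 stood far above the rest here, and KO replicate 2 was above WT replicates 1 to 3. The log2 difference of Psmb2 was -0.25 ± 0.18 with an adjusted p of 0.511 in edgeR, and -0.08 without WT replicate 4.

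The catalytic beta subunits are Psmb6 (beta 1, caspase-like), Psmb7 (beta 2, trypsin-like) and Psmb5 (beta 5, chymotrypsin-like). Psmb7 (chromosome 2, 38588036 to 38644087, minus strand) was at 47.8, 53.8, 40.0 and 70.1 CPM in the WT libraries and at 34.7, 33.4 and 28.3 CPM in the KO libraries. All KO libraries were below all WT libraries, and its log2 difference was -0.72 ± 0.21 with an adjusted p of 0.141 in edgeR and 0.0413 in DESeq2. Psmb7 shares 405 exon bases with Nek6, so its counts are uncertain. Psmb5 was at 53.7, 49.7, 48.7 and 78.0 CPM in the WT libraries and at 43.0, 44.3 and 47.4 CPM in the KO libraries. Its KO libraries were below WT replicate 3 by a narrow margin, with a log2 difference of -0.36 ± 0.19, an adjusted p of 0.38 in edgeR and a log2 difference of -0.17 without WT replicate 4. Psmb6 was at 184, 178, 171 and 232 CPM in the WT libraries and at 170, 169 and 158 CPM in the KO libraries. Here too the groups did not overlap but came close, and the log2 difference was -0.21 ± 0.14, with an adjusted p of 0.469 in edgeR and a log2 difference of -0.10 without WT replicate 4.

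The 7 beta subunits together had a median of -0.36, and in 6 of them every KO library was below every WT library. In all, 9 of the 14 core genes had every KO library below every WT library, against the same 9.03%. The share was 24.5% among genes of at least 16 CPM with transcripts of at most 1500 bases. Of the 14 core transcripts, 11 are that short. The 5 core genes whose groups overlapped were Psma2, Psma3, Psma6, Psma7 and Psmb2, and their log2 differences ran from -0.38 to -0.25. By definition, these 9 core genes also had every KO library below WT replicates 1 to 3, and no further core gene did. Of all genes, 15.8% had every KO library below WT replicates 1 to 3. WT replicate 4 was the highest of the 7 libraries in 9 core genes, against 20.8% of all genes. WT replicate 3 was the lowest WT library in 13 core genes, against 22.5% of all genes. Without KO replicate 1 and WT replicate 4, edgeR called 0 core genes, where 4.20% of all genes were called lower and 5.43% higher. The core median was then -0.29, with all 14 differences still below 0.

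**Figure D2:**
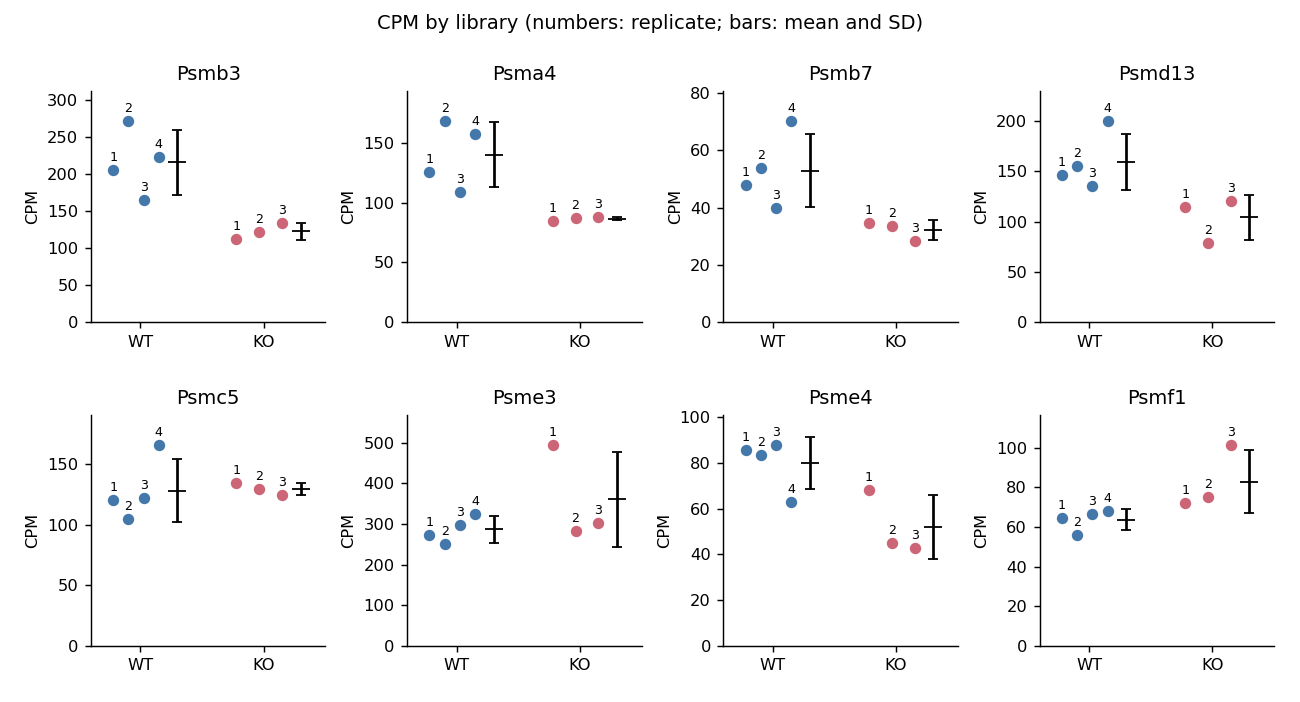
CPM (y axis, from 0) in each library for 8 members, with WT in blue, KO in red, replicate numbers above the points and the mean and SD in black. Psmb3, Psma4, Psmb7 and Psmd13 show KO below WT without overlap, Psmc5 shows overlap, KO replicate 1 stands alone in Psme3, and WT replicate 4 is the lowest WT library in Psme4.

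Psmb6, Psmb7 and Psmb5 are replaced in immunoproteasomes by Psmb9, Psmb10 and Psmb8. These inducible genes had log2 differences of 0.03 ± 0.13 for Psmb9, -0.10 ± 0.15 for Psmb10 and -0.18 ± 0.13 for Psmb8, with adjusted p of 0.921, 0.769 and 0.52 in edgeR. With 1 library left out they ranged from -0.026 to 0.089 for Psmb9, -0.22 to 0.039 for Psmb10 and -0.22 to -0.10 for Psmb8. For each site the level per kilobase of the inducible gene was divided by that of its constitutive partner within a library. The Psmb9 to Psmb6 ratio was 1.002, 0.932, 0.902 and 0.832 in WT replicates 1 to 4 and 1.02, 1.14 and 1.07 in KO replicates 1 to 3. All KO ratios were above all WT ratios, KO replicate 1 by little. The mean log2 ratio was 0.23 higher in KO, and an exact two-sided permutation test gave p = 0.0571, where the smallest possible is 0.0286.

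The Psmb10 to Psmb7 ratio was 4.997, 4.04, 5.59 and 3.31 in WT replicates 1 to 4 and 4.86, 7.37 and 7.84 in KO replicates 1 to 3. KO replicate 1 lay inside the WT range and the other KO libraries above it. The mean log2 ratio was 0.58 higher in KO, with an exact permutation p of 0.143. The Psmb8 to Psmb5 ratio was 3.76, 3.62, 3.71 and 2.91 in WT and 3.80, 4.09 and 3.74 in KO. Those groups overlapped, the mean log2 ratio was 0.15 higher in KO, and the exact permutation p was 0.171. Adjusted over the 3 pairs, each exact permutation p was 0.171, so no ratio passed the test at 0.05. As a share of each pair, the inducible transcript made up 47.8 ± 1.93% (SD, n = 4) at beta 1 in WT and 51.8 ± 1.41% (SD, n = 3) in KO. At beta 2 the shares were 81.3 ± 3.56% and 86.6 ± 3.16%, and at beta 5 they were 77.6 ± 2.14% and 79.5 ± 0.762%. The inducible transcript was thus the larger part at beta 2 and beta 5 in every library. The values at beta 2 are uncertain, because Psmb7 shares 405 exon bases with Nek6.

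**Figure D3:**
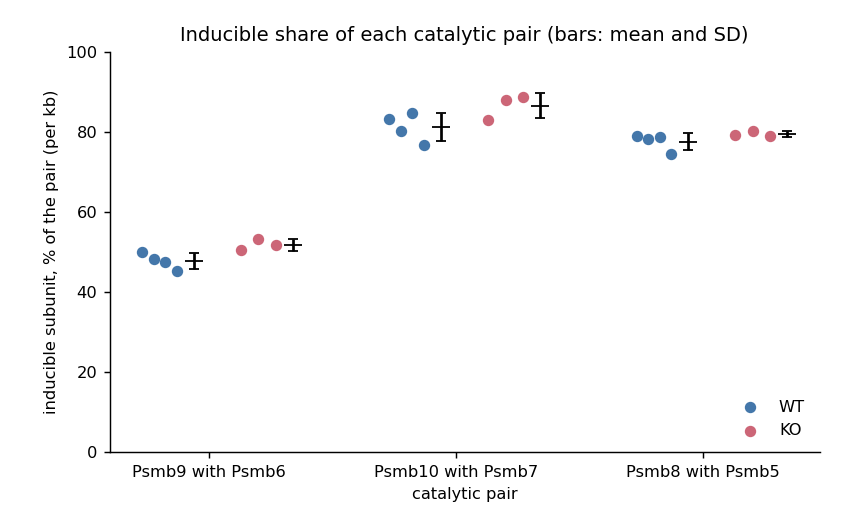
Share of the inducible subunit in each catalytic pair (y axis, percent of the pair's CPM per kilobase, from 0) in 4 WT libraries (blue) and 3 KO libraries (red), with mean and SD in black. Shares sit near 50% for Psmb9 with Psmb6 and between 74.5% and 88.7% for the other pairs.

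In the regulatory particle, the 6 ATPases of the base had a median log2 difference of -0.12. Psmc6 was at 106, 134, 90.1 and 116 CPM in the WT libraries and at 80.3, 81.8 and 93.4 CPM in the KO libraries. KO replicate 3 overlapped WT replicate 3, and the log2 difference was -0.39 ± 0.16 with an adjusted p of 0.244 in edgeR. Psmc3 was at 205, 216, 196 and 267 CPM in the WT libraries and at 175, 188 and 206 CPM in the KO libraries. Its groups overlapped through KO replicate 3, and its log2 difference was -0.22 ± 0.14, with an adjusted p of 0.465 in edgeR, or -0.11 without WT replicate 4. Psmc5 was at 121, 105, 122 and 166 CPM in the WT libraries and at 135, 130 and 124 CPM in the KO libraries, so its KO libraries lay within the WT range. Its log2 difference was 0.01 ± 0.17, with an adjusted p of 0.976 in edgeR.

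Of the other base subunits, Psmd1 and Psmd2 are the large scaffold proteins and Psmd4 is a ubiquitin receptor. Psmd1 was at 123, 119, 120 and 177 CPM in the WT libraries and at 123, 110 and 112 CPM in the KO libraries. WT replicate 4 alone was high, and the log2 difference was -0.22 ± 0.17 with an adjusted p of 0.535 in edgeR, or -0.06 without that library. Psmd2 was at 293, 248, 315 and 345 CPM in the WT libraries and at 261, 257 and 297 CPM in the KO libraries. Its KO libraries lay inside the WT range, with a log2 difference of -0.15 ± 0.15 and an adjusted p of 0.655 in edgeR. Its difference was -0.067 without WT replicate 4 and -0.23 without WT replicate 2. Psmd4 was at 216, 209, 222 and 187 CPM in the WT libraries and at 195, 204 and 184 CPM in the KO libraries. In contrast to most regulatory genes, WT replicate 4 was its lowest WT library, and its log2 difference was -0.10 ± 0.11, with an adjusted p of 0.69 in edgeR, or -0.065 without KO replicate 3.

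The 8 lid genes had a median log2 difference of -0.17. Psmd13 (chromosome 7, 140881968 to 140898643, plus strand), a structural subunit of the lid, was at 146, 155, 135 and 199 CPM in the WT libraries and at 114, 78.8 and 120 CPM in the KO libraries. All KO libraries were below all WT libraries, KO replicate 2 by far, and the means were 104 ± 22.4 CPM (SD, n = 3) and 159 ± 28.1 CPM (SD, n = 4). The log2 difference of Psmd13 was -0.61 ± 0.20, with an adjusted p of 0.169 in edgeR. It shares 152 exon bases with Sirt3. Psmd6 was at 137, 159, 117 and 154 CPM in the WT libraries and at 105, 118 and 111 CPM in the KO libraries. KO replicate 2 exceeded WT replicate 3 by a small margin, and the log2 difference of Psmd6 was -0.35 ± 0.14 with an adjusted p of 0.235 in edgeR. Psmd7 was at 101, 101, 109 and 170 CPM in the WT libraries and at 110, 129 and 131 CPM in the KO libraries. Its KO libraries were all above WT replicates 1 to 3 and below WT replicate 4, with a log2 difference of 0.03 ± 0.21 and an adjusted p of 0.951 in edgeR.

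Apart from Psmd13, the only regulatory gene with every KO library below every WT library was Psmd8, a lid subunit named here after its values were seen. Psmd8 was at 205, 201, 191 and 314 CPM in the WT libraries and at 158, 173 and 179 CPM in the KO libraries, with a log2 difference of -0.42 ± 0.20 and an adjusted p of 0.303 in edgeR, or -0.23 without WT replicate 4. These 2 of 17 regulatory genes compare with 9.03% of all genes, a share near the background. Psmd14, the deubiquitinase of the lid, was also high in WT replicate 4, at 233 CPM where WT replicates 1 to 3 had 129 to 141 CPM. WT replicate 4 was the highest of the 7 libraries in 13 of the 17 regulatory genes, where it was in 20.8% of all genes. Without WT replicate 4 the regulatory median was 0.0076, and 0.039 without KO replicate 1 as well, so the direction of the regulatory median rested on WT replicate 4.

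**Figure D4:**
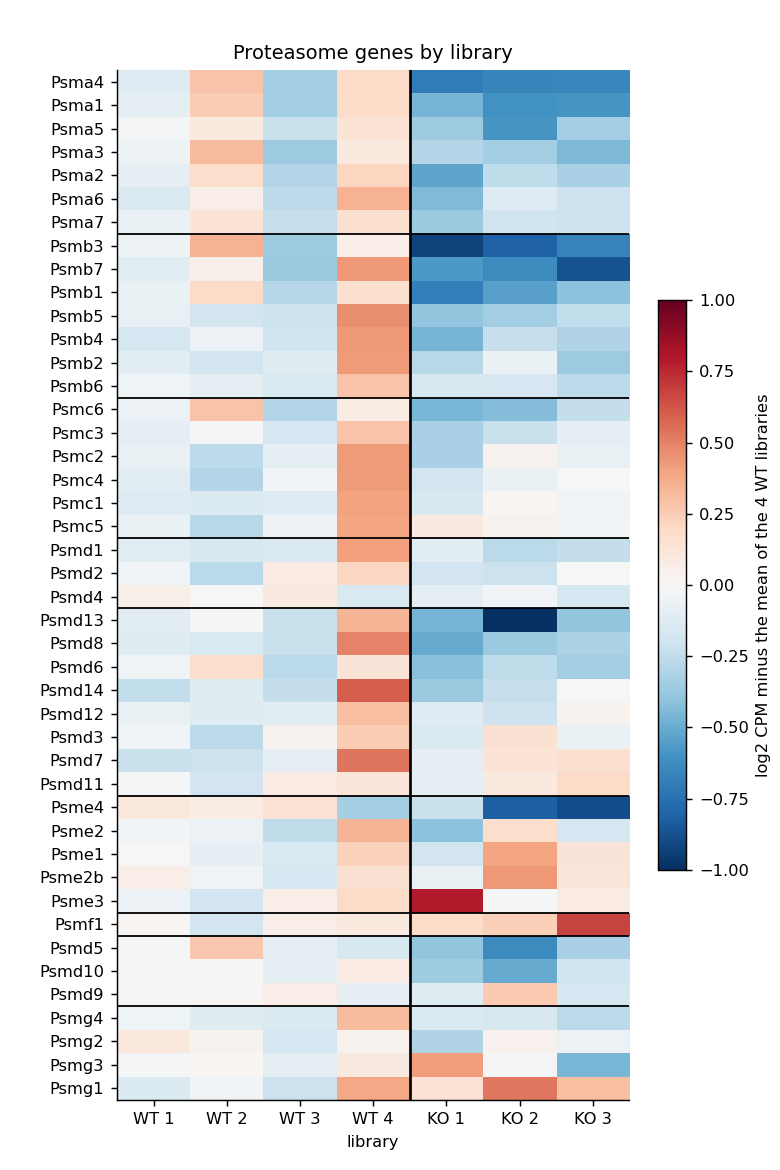
Log2 CPM minus the mean of the 4 WT libraries (colour, which saturates at 1 below and above 0) for 44 proteasome genes (rows, grouped as in the plot of differences) in the 7 libraries (columns). The core rows at the top are blue in all 3 KO columns, and WT replicate 4 is red in most core and regulatory rows.

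By library, the mean log2 CPM of the 14 core genes, taken relative to its WT mean, was -0.09, 0.10, -0.27 and 0.26 in WT replicates 1 to 4 and -0.47, -0.40 and -0.42 in KO replicates 1 to 3. The KO libraries were close to each other and all below WT replicate 3. The same measure for the 17 regulatory genes was -0.09, -0.12, -0.10 and 0.31 in WT and -0.23, -0.17 and -0.10 in KO. There WT replicate 4 stood alone, and KO replicate 3 reached the level of WT replicates 1 to 3. The mean log2 CPM of the core minus that of the regulatory particle was 0.00, 0.23, -0.16 and -0.04 in WT and -0.23, -0.23 and -0.32 in KO. Every KO library was below every WT library on this measure, although KO replicates 1 and 2 were close to WT replicate 3. No p is given for these scores, because the genes were chosen with earlier results known.

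The particles differ in transcript length, taken from a principal transcript in GENCODE M21. Core transcripts were 766 to 2911 bases long, 11 of 14 of them at most 1500 bases, and regulatory transcripts 1316 to 3112 bases, 4 of 17 at most 1500. The 1219 genes of at least 16 CPM with transcripts of at most 1500 bases had a median log2 difference of -0.24, and in 24.5% of them every KO library was below every WT library. Their median deviation from the WT mean was -0.02, 0.05, -0.13 and 0.11 in WT replicates 1 to 4 and -0.25, -0.20 and -0.22 in KO, the same order of WT libraries as in the core genes. The 11 short core genes had a median of -0.36, and 8 of them had KO below WT without overlap. Among the 6651 longer genes the median was -0.07, and that of the 3 longer core genes was -0.38, with 1 of them without overlap, where 10.75% of the longer genes were. Across genes, which share the 7 libraries and are not replicates, Pearson's r of log2 length with the log2 difference was -0.005 within the 14 core genes, 0.004 within the 17 regulatory genes and 0.305 over the 31 genes of both. Each r is a description over few genes. The part of transcript length in the difference between the particles was not tested, nor was that of the B cell, myeloid and red cell transcripts or of the cell cycle genes given above.

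**Figure D5:**
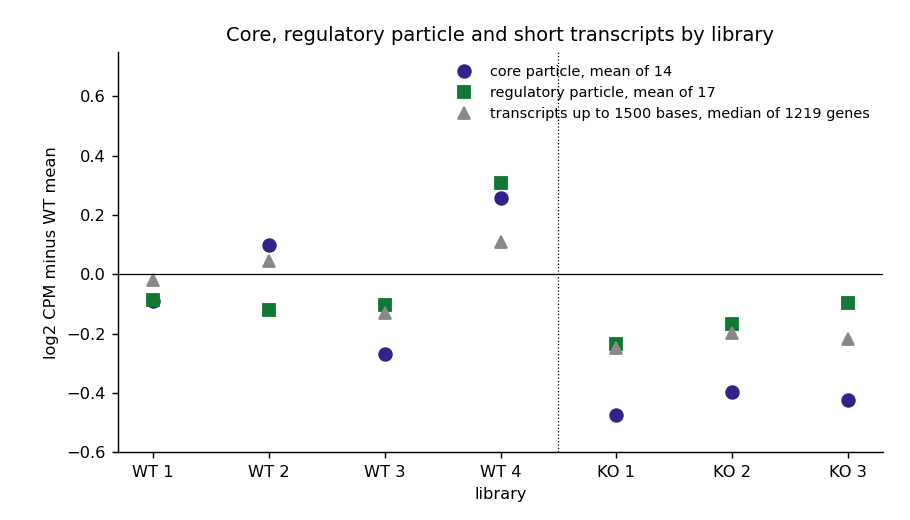
Deviation from the WT mean in log2 CPM (y axis) in each library (x axis) for the mean of the 14 core genes, the mean of the 17 regulatory genes and the median of short transcripts. The core points of the KO libraries lie between -0.47 and -0.40, the short transcripts between -0.25 and -0.20, and the regulatory points between -0.23 and -0.10.

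The levels of subunits within a particle were compared per kilobase of transcript. Of the core genes, Psma7 had the highest CPM per kilobase in every library, from 281 in KO replicate 1 to 408 in WT replicate 4. Psmb7 was the lowest in every library but WT replicate 4, where Psma3 was. The level of Psmb7 was 45.6 ± 11.0 CPM per kilobase (SD, n = 4) in WT and 27.7 ± 2.91 (SD, n = 3) in KO. That level and rank are uncertain, because Psmb7 shares exon bases with Nek6. The next core genes above Psmb7 in WT, Psma5 at 54.4 ± 5.86 and Psma3 at 55.8 ± 10.8 CPM per kilobase, had values over the WT libraries that overlapped with its own. Below Psma7 in WT came Psmb3 at 282 ± 57.2, Psmb6 at 239.6 ± 34.6, Psmb2 at 235 ± 50.8 and Psma1 at 234 ± 43.0 CPM per kilobase, and their values over the WT libraries overlapped. These levels come from the same libraries, and the order within a library was not tested. In KO, Psmb3 was at 160 ± 14.6 CPM per kilobase, under Psmb6 and Psmb2. Subunit levels varied within the core with a coefficient of variation of 58.4% to 66.7% in the 7 libraries, and within the regulatory particle with one of 35.1% to 39.5%.

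The region before the start sites is printed for a few members that hold a searched motif. Core and regulatory genes held some of these motifs in unlike shares, a difference that was not tested. RefSeq start sites (GRCm38.p6) were found for 39 of the 46 members, and windows of 250 bases before to 50 bases after each start were searched on both strands. CCGGAAG, a site for ETS factors, was in 10 of 15 regulatory windows (66.7%, 9 of 14 genes) and in 1 of 12 core windows (8.33%, the gene Psma6), against 17.7% of the windows of measured genes and 8.86% of all windows. GGGCGG, the GC box, was in 66.7% of regulatory and 41.7% of core windows, against 60.7% of the windows of measured genes. CCAAT was in 50.0% of core and 26.7% of regulatory windows, against 38.1%. TGACNNNGC, the core of the antioxidant response element to which Nfe2l1 and Nfe2l2 bind, was in 16.7% of core windows (Psmb5 and Psmb6) and in 13.3% of regulatory windows (Psmc6 and Psmd12), against 14.4% of the windows of measured genes. These are matches of letters, not sites shown to be bound. The stretches below run 5′ to 3′ on the strand of the gene and end before the first annotated exon. Capitals mark matches of CCAAT, TGACNNNGC and CCGGAAG on either strand. GGGCGG is left in lower case, although the printed stretches of Psma1, Psmc6, Psmd2 and Psmd11 hold it.
The core genes Psmb3 (chr11:97703314-97703398, plus strand) and Psma1 (chr7:114276119-114276236, minus strand) hold CCAAT, Psmb3 in 2 places of the printed stretch. Psma1 has another match at -126 to -122 from its start site, ahead of the printed stretch. The window of Psma4 lacks CCAAT. Of the 6 core genes with it, 4 (Psma2, Psma3, Psma6 and Psma7) had overlapping groups, and Psmb3 and Psma1 did not. Whether CCAAT goes with the size of the difference was not tested.
Psmb3: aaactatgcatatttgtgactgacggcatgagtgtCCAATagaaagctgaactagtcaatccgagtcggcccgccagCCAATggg
Psma1: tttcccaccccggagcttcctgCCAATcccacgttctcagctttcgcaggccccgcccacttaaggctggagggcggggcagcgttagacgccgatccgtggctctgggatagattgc
The catalytic genes Psmb5 (chr14:54618023-54618115, minus strand) and Psmb6 (chr11:70525237-70525356, plus strand) hold TGACNNNGC.
Psmb5: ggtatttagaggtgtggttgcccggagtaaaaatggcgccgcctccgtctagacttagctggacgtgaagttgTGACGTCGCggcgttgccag
Psmb6: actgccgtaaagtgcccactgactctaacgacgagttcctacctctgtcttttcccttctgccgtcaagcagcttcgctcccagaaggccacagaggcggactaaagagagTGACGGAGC
The regulatory genes Psmc6 (chr14:45329704-45329787), Psmd2 (chr16:20651532-20651651) and Psmd11 (chr11:80428495-80428614), all on the plus strand, hold CCGGAAG or its reverse complement.
Psmc6: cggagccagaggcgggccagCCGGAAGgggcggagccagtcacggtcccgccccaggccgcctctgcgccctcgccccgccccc
Psmd2: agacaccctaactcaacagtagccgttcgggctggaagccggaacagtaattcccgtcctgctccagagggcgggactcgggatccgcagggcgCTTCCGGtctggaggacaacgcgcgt
Psmd11: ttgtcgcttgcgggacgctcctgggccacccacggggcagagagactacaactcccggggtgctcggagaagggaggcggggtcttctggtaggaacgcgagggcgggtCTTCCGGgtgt
Their log2 differences were -0.39 for Psmc6, -0.15 for Psmd2 and 0.07 for Psmd11. Among the 9 regulatory genes with this match, Psmd11 alone was above 0, and Psmd13 was the lowest at -0.61. Of all 17 regulatory genes, 14 were below 0.

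The activators dock on the core in place of the regulatory particle. Psme1 and Psme2 form the interferon-inducible PA28 ring. Psme1 was at 313, 294, 280 and 365 CPM in the WT libraries and at 274, 409 and 341 CPM in the KO libraries. Psme2 was at 279, 272, 238 and 359 CPM in the WT libraries and at 214, 320 and 253 CPM in the KO libraries. In both genes the groups overlapped, and KO replicate 2 was the highest and KO replicate 1 the lowest KO library. The log2 differences were 0.13 ± 0.17 for Psme1 (adjusted p 0.751) and -0.13 ± 0.19 for Psme2 (adjusted p 0.773) in edgeR. Neither sign held with every library left out in turn. Psme2b, a near copy of Psme2 with which reads may have been shared, was at 38.7, 35.9, 32.6 and 40.9 CPM in the WT libraries and at 35.03, 49.8 and 40.1 CPM in the KO libraries. Its groups overlapped, with a log2 difference of 0.17 ± 0.17 and an adjusted p of 0.652 in edgeR, or 0.022 without KO replicate 2.

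Psme3 encodes the nuclear activator PA28 gamma. It was at 273, 250, 298 and 325 CPM in the WT libraries and at 495, 284 and 303 CPM in the KO libraries. KO replicate 1 was far above the others, and KO replicates 2 and 3 lay within the WT range. The log2 difference of Psme3 was 0.33 ± 0.22 with an adjusted p of 0.464 in edgeR, and 0.03 without KO replicate 1.

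Psme4 (chromosome 11, 30771726 to 30880361, plus strand) encodes the large activator PA200. It was at 85.6, 83.7, 87.9 and 63.0 CPM in the WT libraries and at 68.1, 45.2 and 42.8 CPM in the KO libraries. WT replicates 1 to 3 were close to each other, whereas KO replicate 1 was above WT replicate 4, so the groups overlapped. The KO mean was 52.0 ± 13.98 CPM (SD, n = 3) and the WT mean 80.1 ± 11.5 CPM (SD, n = 4), with a log2 difference of -0.62 ± 0.21 and an adjusted p of 0.176 in edgeR. Without KO replicate 1 and WT replicate 4 the log2 difference was -0.94 and the adjusted p 0.0164 in edgeR, and limma voom with quality weights gave -0.78 and 0.0337 over all 7 libraries. In both of these fits Psme4 was the 1 member called of 46, where 4.20% and 1.68% of all genes were called lower, so the count is near the background.

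Psmf1 (chromosome 2, 151715812 to 151744186, minus strand) encodes PI31, described as an inhibitor of the core particle in vitro. It was at 64.3, 56.0, 66.5 and 68.1 CPM in the WT libraries and at 72.2, 75.1 and 101 CPM in the KO libraries. All KO libraries were above all WT libraries, KO replicate 3 the most. Psmf1 was the 1 member with this pattern, where 9.46% of all genes showed it, and its log2 difference was 0.38 ± 0.16, with an adjusted p of 0.25 in edgeR, or 0.21 without KO replicate 3.

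The base chaperones Psmd5, Psmd9 and Psmd10 hold ATPase pairs during assembly and are absent from the finished particle. Psmd5 was at 143, 175, 137 and 130 CPM in the WT libraries and at 111, 93.6 and 116 CPM in the KO libraries. Psmd10 (gankyrin) was at 59.1, 60.1, 56.0 and 63.1 CPM in the WT libraries and at 46.4, 41.9 and 51.9 CPM in the KO libraries. In both genes all KO libraries were below all WT libraries. The log2 differences were -0.45 ± 0.15 for Psmd5 (adjusted p 0.165) and -0.35 ± 0.13 for Psmd10 (adjusted p 0.204) in edgeR. Psmd9 was at 38.4, 38.3, 39.8 and 35.9 CPM in the WT libraries and at 34.9, 45.7 and 33.7 CPM in the KO libraries, which span the WT range on both sides. Its log2 difference was 0.00 ± 0.16, with an adjusted p of 0.999 in edgeR.

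The core chaperones Psmg1 to Psmg4 build the alpha ring. Psmg1 was at 22.1, 23.8, 20.9 and 31.7 CPM in the WT libraries and at 26.9, 35.01 and 29.9 CPM in the KO libraries. Its partner Psmg2 was at 60.9, 58.2, 50.2 and 58.2 CPM in the WT libraries and at 46.2, 58.4 and 54.6 CPM in the KO libraries. Both overlapped, and the log2 differences were 0.31 ± 0.20 for Psmg1 (adjusted p 0.464) and -0.10 ± 0.14 for Psmg2 (adjusted p 0.75) in edgeR. They were 0.20 for Psmg1 without KO replicate 2 and -0.011 for Psmg2 without KO replicate 1. Psmg3 was at 12.0, 12.4, 11.4 and 12.9 CPM in the WT libraries and at 16.2, 12.1 and 8.88 CPM in the KO libraries. Psmg4 was at 27.4, 25.9, 25.5 and 35.1 CPM in the WT libraries and at 25.6, 25.2 and 23.5 CPM in the KO libraries. KO libraries of Psmg3 spread more widely than its WT libraries, while those of Psmg4 lay at the low end of WT. The log2 differences were 0.02 ± 0.26 for Psmg3 (adjusted p 0.971) and -0.20 ± 0.18 for Psmg4 (adjusted p 0.6) in edgeR, the latter -0.083 without WT replicate 4. Over the 13 accessory genes, 6 differences were below 0 and 7 above.

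The genes that work with the proteasome were described from a list of 32, of which 31 were measured. It held ubiquitin genes and E1 enzymes, shuttle factors, the Vcp complex, deubiquitinases and the regulators Nfe2l1 and Nfe2l2. Of these, 21 were below 0 and 10 above, with a median of -0.17. None was called by edgeR, limma voom or DESeq2 over the 7 libraries, and at an unadjusted p under 0.05 in edgeR 3 were lower (Sem1, Pomp and Ngly1), against 7.89% of all genes. Every KO library was below every WT library in 1 of the 31 (Pomp), against 9.03% of all genes. Sem1, a small lid protein, was at 195, 225, 136 and 264 CPM in the WT libraries and at 140, 122 and 116 CPM in the KO libraries. KO replicate 1 overlapped WT replicate 3, and the log2 difference was -0.70 ± 0.22 with an adjusted p of 0.159 in edgeR.

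Pomp, the chaperone that joins the core particle's rings, was at 191, 222, 148 and 296 CPM in the WT libraries and at 146, 134 and 130 CPM in the KO libraries. The KO libraries were all below the WT libraries, KO replicate 1 by little, with a log2 difference of -0.65 ± 0.23 and an adjusted p of 0.191 in edgeR. Nfe2l1, the transcription factor of proteasome genes that responds to proteasome shortage, was at 102, 93.7, 118 and 110 CPM in the WT libraries and at 99.4, 73.3 and 85.0 CPM in the KO libraries. Its groups overlapped through KO replicate 1, and the log2 difference was -0.30 ± 0.15 with an adjusted p of 0.324 in edgeR, or -0.20 without KO replicate 2.

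The 2 members that are not subunits were both in overlap. Psmc3ip, a meiotic recombination factor known as Hop2, was at 4.22, 4.22, 3.44 and 7.22 CPM in the WT libraries and at 6.47, 12.5 and 6.22 CPM in the KO libraries. KO replicate 2 was the highest library, and the log2 difference was 0.82 ± 0.40 with an adjusted p of 0.329 in edgeR, or 0.41 without KO replicate 2. Psmc3ip shares 385 exon bases with Mlx. Psme3ip1, which encodes a protein that binds PA28 gamma, had a log2 difference of -0.05 ± 0.12 and an adjusted p of 0.846 in edgeR.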

How the data were processed

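The authors deposited raw gene counts and log2 CPM of the same 16156 genes in 7 libraries (3 ACLY KO, 4 WT). Trim Galore 0.6.0, STAR 2.7.8, DESeq2 (without a version) and the build mm10 are named in the submitters' processing notes. For the read counter, the annotation and the strand setting, the sources used here give nothing. Log2 CPM recomputed from the counts with TMM scaling and a prior count of 2 equalled the deposited log2 values within 4.99e-09. That table supplied the symbols.

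All genes were tested with edgeR 4.0.16 in R 4.3.3 (quasi-likelihood, genotype as the only term, Benjamini-Hochberg adjustment over all genes, threshold 0.05). The filter filterByExpr removed 0 genes. SEs come from that fit. Alternatives were DESeq2 1.42.0, limma 3.58.1 (voom with quality weights), DESeq2 size factors, upper-quartile scaling, a filter on a mean count of 10, no filter, a replicate block, each library left out, and KO replicate 1 with WT replicate 4 left out. Scripts were tested on simulated data.

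Coordinates, exon overlaps and transcript lengths came from GENCODE M21 (GRCm38, which is mm10), in which 16136 of the 16156 genes were found. By these exons 8 members overlap a second measured gene, which makes their counts uncertain: Psma4, Psmb7, Psmc3, Psmc3ip, Psmd13, Psme1, Psme2b and Psme3ip1. Start sites and promoter sequence came from RefSeq (GRCm38.p6). The members, lists and tests were chosen with earlier results of these data known. Values by library were given for Acly, the catalytic subunits and their inducible partners, the members with the 2 smallest and the largest p in each subgroup of the particles, all activators, the inhibitor and chaperones, and, among associated genes, the 3 with the smallest p and Nfe2l1. Of these, 1 associated gene is not reported here. Psmd8, Psmd11, Psmd14, Ngly1, Rad23b and the 2 members that are not subunits were added after their values were seen.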

Additional observations from a re-analysis of the deposited data

Results flagged for a closer look

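A single WT library lay far from the other 3 in 6 of 40 values examined in the 4 WT libraries, in that its gap to the nearest library, divided by the WT range, passed Dixon's 95% critical value for 4 samples. Chance gives this in about 1 in 20 groups, and the values share libraries. In every case the library was WT replicate 4. It was the highest for Psmb2 (267 CPM), Psmb5 (78.0 CPM), Psmd1 (177 CPM), Psmd7 (170 CPM, 169.8 before rounding) and the mean log2 CPM of the 17 regulatory genes (7.63), and the lowest for Psme4 (63.0 CPM). The cell cycle genes were also highest in this library, at a mean log2 CPM of 7.96, and their part in these values was not tested.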

How the results depend on the processing

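The core median stayed below 0 in every alternative, from -0.48 to -0.33 with 1 library left out, and all 14 core genes were below 0 in each. The regulatory median ranged from -0.22 to 0.0076 with 1 library left out (0.0076 without WT replicate 4) and was 0.039 without KO replicate 1 and WT replicate 4. Members called lower numbered 0 in edgeR, 5 in DESeq2, and 1 each in limma voom and in edgeR without those 2 libraries. The latter fit also called 1 of 31 associated genes lower, Rad23b, where 4.20% of all genes were. No member or associated gene was called higher in any alternative, and leaving out 1 library gave 0 calls each way for both lists. Few genes at all were called in those fits. Leaving out WT replicate 1, 2 or 3 gave 0 calls. Without WT replicate 4, 108 of 15659 genes were called higher and 21 lower. Of 16156 genes, 111 and 48 were called without KO replicate 1, 118 and 2 without KO replicate 2, and 142 and 47 without KO replicate 3. The log2 ratios of the catalytic pairs ranged from 0.19 to 0.28 (beta 1), 0.44 to 0.79 (beta 2) and 0.07 to 0.19 (beta 5) with 1 library left out. With the replicate number as a block, 0 members were called and the medians were -0.31 (core) and 0.00 (regulatory). WT replicate 4 has no KO library of its number, so it added nothing to the differences of that fit. The deviations of same-numbered libraries had correlations of -0.11, -0.05 and 0.14, and only KO replicate 3 correlated best with its own number. The labels state no pairing, and correlations between so few libraries cannot decide whether samples were paired. Of 35 named genes, 28 kept their sign in all 15 alternatives. For the other 7, leaving out 1 library, or KO replicate 1 with WT replicate 4, gave log2 differences of -0.025 to 0.36 for Psme1, -0.30 to 0.14 for Psme2, -0.15 to 0.083 for Psmd9, -0.18 to 0.019 for Psmg2, -0.22 to 0.22 for Psmg3, -0.073 to 0.17 for Psmc5 and -0.043 to 0.34 for Psmd7. In limma voom Psmd9 was at -0.0010 and Psmg3 at -0.016, and with the replicate block Psmd9 was at -0.040. The cause of these changes was not tested. All members had at least 179 counts in each library, and the comparisons are limited by 3 KO and 4 WT libraries.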
